A study of Mus musculus with 24 samples.

Results

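The genes described here are 6 fibroblast growth factor (FGF) ligands (Fgf3, Fgf4, Fgf5, Fgf8, Fgf15 and Fgf17) and 4 FGF receptors (Fgfr1, Fgfr2, Fgfr3 and Fgfr4), 10 of the 19938 genes measured. They were chosen by name, though with earlier results of these data known. Each had 1 probe set that the array's annotation gives to that gene alone, and all 10 passed a filter on dim genes, which kept 13292. RNA of P19, a mouse embryonal carcinoma line that differentiates when given retinoic acid, was hybridised to 24 Affymetrix Mouse Gene 1.0 ST arrays. The cells grew as a monolayer on gelatine-coated plates. The control was the solvent ethanol (EtOH), with 4 arrays that carry no time label. Retinoic acid receptors (RARs) were engaged with all-trans retinoic acid (ATRA, 1 µM), with the RARα-selective agonist BMS753 (1 µM), with the RARβ-selective agonist BMS641 (0.1 µM) or with the RARγ-selective agonist BMS961 (0.1 µM). Each agent had 1 array at 2, 6, 24, 48 and 72 h. The 2 and 6 h arrays are called early here (n = 2 per agent) and the 24, 48 and 72 h arrays late (n = 3 per agent).

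The design limits what the values can show. All samples come from a single cell line, and the labels do not say whether the arrays came from separate cultures. Each p-value therefore measures the spread between these arrays, which may be technical in part. In the fit of all arrays, that spread also holds how the agents differ in their course over time. It is pooled over all groups, so flat courses carry it too. For Fgf4 the standard deviation was 0.14 in late BMS641 arrays and 0.80 in late ATRA arrays, yet both changes carry the same standard error. The EtOH arrays have no time label. The BMS641 and BMS961 arrays were taken at the same times as the ATRA and BMS753 arrays, and at 72 h they stood -0.15 and -0.15 from the EtOH mean for Fgf4 (ATRA -2.51) and 0.15 and 0.41 from it for Fgfr2 (ATRA 1.98). The RNA was taken from whole cultures, in which fewer cells of a type and less RNA per cell cannot be told apart. Of 9 markers of embryonal carcinoma cells, 8 lay above the median of the EtOH arrays (6.53), with Pou5f1 at the top (12.9) and Zfp42 as the exception (4.83). In the fit described next, 7 of these 9 were lower in late ATRA arrays and 2 in late BMS753 arrays. For these and the marker counts below, the shares over all genes were 17.9% higher and 19% lower with late ATRA. With late BMS753 they were 6.52% and 6.94%. Their mean change over the list ran from -3.69 to -0.59 in the ATRA arrays and from -2.13 to 0.07 in the BMS753 arrays. In late ATRA arrays neural markers changed by means of 0.25 to 1.72 (3 of 7 higher), endoderm markers by 0.49 to 0.76 (3 of 7 higher), fibroblast and smooth muscle markers by 0.06 to 2.20 (5 of 6 higher), mesoderm markers by -0.26 to -0.15 (1 higher and 3 lower of 5) and trophoblast markers by -0.03 to 0.47 (2 higher and 1 lower of 5). In late BMS753 arrays the means were 0.01 to 0.69 for neural (1 higher), 0.20 to 0.53 for endoderm (2 higher), 0.05 to 1.20 for fibroblast and smooth muscle (0 called), -0.15 to -0.08 for mesoderm (1 higher and 2 lower) and -0.09 to 0.23 for trophoblast markers (1 higher and 1 lower). The part of these shifts in cell state in the changes of the FGF genes was not tested.

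FGF ligands are secreted proteins that bind receptor tyrosine kinases together with heparan sulfate, and the activated receptors signal through adaptor proteins to the Ras-MAPK cascade. In pluripotent mouse cells Fgf4 is the best-known autocrine ligand and prepares the cells to leave the pluripotent state, Fgfr1 is a main receptor, and Fgf5 marks the primed, epiblast-like state. Fgf8, Fgf15 and Fgf17 act as patterning signals in the early embryo, and Fgf3 is known from inner ear and hindbrain development.

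Fgf4 and Fgfr2, both on mouse chromosome 7, are the ligand and the receptor that passed the test with both ATRA and BMS753, one lower and the other higher. Their promoters are shown to set these side by side, as the 250 bases before the annotated start in RefSeq (GRCm38.p6). Capitals mark the matches of the motifs searched on both strands, which were the retinoid receptor motif AGGTCA, its direct repeats with spacers of 2 and 5 bases, the TATA box TATAAA, the variant TATATA, the GC box GGGCGG and the octamer ATGCAAAT. The Fgf4 promoter lies at chr7:144861136-144861385 on the plus strand and the Fgfr2 promoter at chr7:130266809-130267058 on the minus strand.
Fgf4: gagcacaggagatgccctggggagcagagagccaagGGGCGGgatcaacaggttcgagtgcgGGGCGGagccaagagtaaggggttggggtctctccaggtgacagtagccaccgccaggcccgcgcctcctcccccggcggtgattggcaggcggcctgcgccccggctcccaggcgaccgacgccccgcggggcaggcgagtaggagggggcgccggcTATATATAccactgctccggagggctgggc
Fgfr2: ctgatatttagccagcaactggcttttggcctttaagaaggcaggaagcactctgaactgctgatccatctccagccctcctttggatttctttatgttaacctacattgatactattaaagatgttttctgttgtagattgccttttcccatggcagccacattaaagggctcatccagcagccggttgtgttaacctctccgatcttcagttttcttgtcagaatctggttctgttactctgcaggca
The Fgf4 sequence held 21 CpG dinucleotides at 71.2% GC, with 2 GC boxes and 2 overlapping TATATA matches 30 and 28 bases before the start. The Fgfr2 sequence held 2 CpG dinucleotides at 44% GC and no match. Over the 32851 promoters of the table, of the same length, the median was 6 CpG, 32.74% held a GC box and 5.248% held TATATA. The reference held 7 promoters of 6 of the 10 genes (Fgf3, Fgf4, Fgf5, Fgfr2, Fgfr3 and Fgfr4), and none held AGGTCA (in 14.02% of all promoters), either direct repeat (0.009132% each), TATAAA (12.37%) or the octamer (1.601%). A match describes letters only, and its absence says nothing of factor binding.

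All values below are the deposited log2 intensities, and a change is a difference on that log2 scale with the standard error (SE) of a limma fit of all 24 arrays. A gene is called where the Benjamini-Hochberg adjusted p, over all 19938 genes, was under 0.05, two-sided. In late ATRA arrays 4 of the 10 genes were called, beside 36.9% of all genes called. Fgf17 and Fgfr2 were higher, beside 17.9% of all genes, and Fgf4 and Fgf15 lower, beside 19%. In late BMS753 arrays 4 of the 10 were called, beside 13.5% of all genes. Fgf4 was lower, beside 6.94% of all genes, and Fgfr1, Fgfr2 and Fgfr3 were higher, beside 6.52%. Early on, 1 of 10 was called with ATRA, Fgfr4, beside 0.858% of all genes called in either direction and 0.823% called higher. Both agents were set against the same EtOH arrays. The median change of the 10 genes was 0.05 with late ATRA and 0.02 with late BMS753, against 0.03 and -0.01 over all genes.

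**Figure D1:**
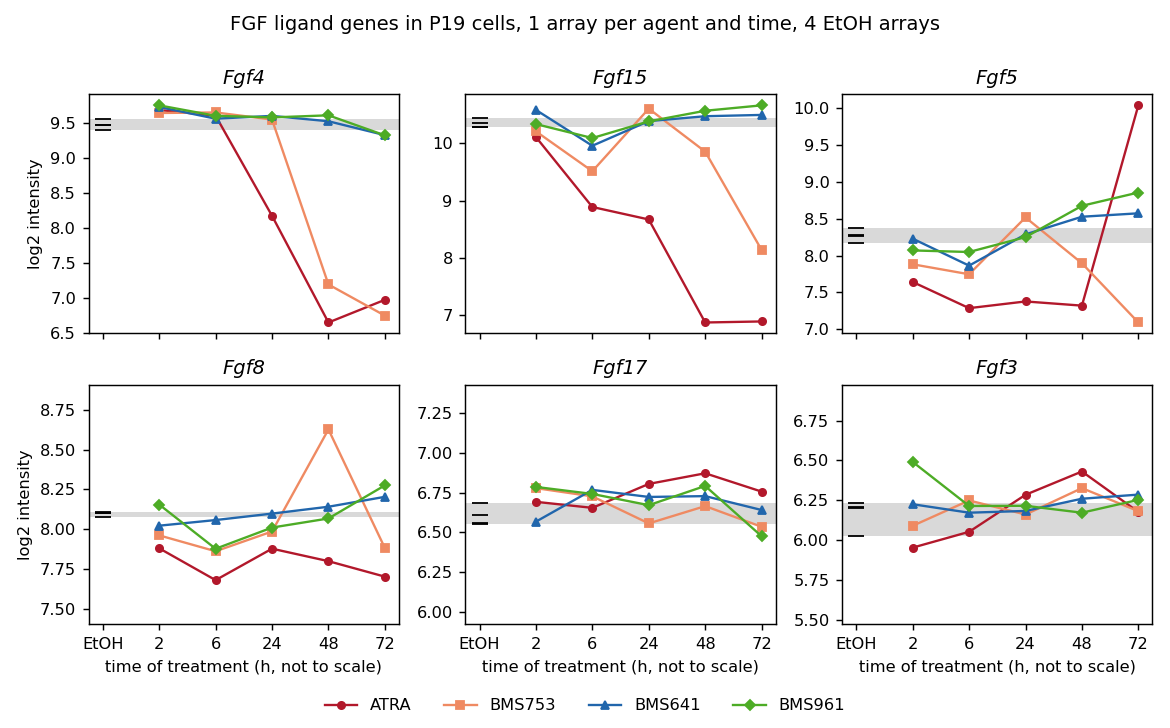
Log2 intensity (vertical axis, own scale in each panel) of the 6 FGF ligand genes by time of treatment in hours (horizontal axis, not to scale), 1 array per point; black bars are the 4 EtOH arrays and the grey band their range. The ATRA arrays fall to 6.65 for Fgf4 and 6.87 for Fgf15 at 48 h, and Fgf5 stands at 10.04 in the 72 h ATRA array.

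Fgf4 fell with ATRA and with BMS753. The EtOH arrays read 9.48, 9.56, 9.48 and 9.41, the ATRA arrays 9.69, 9.61, 8.18, 6.65 and 6.97 from 2 to 72 h, and the BMS753 arrays 9.65, 9.66, 9.55, 7.19 and 6.75. The 3 late ATRA arrays lay below all EtOH arrays, while with BMS753 the 24 h array still stood among them and only the 48 and 72 h arrays were low. The late change was -2.21 ± 0.34 (SE) with ATRA (4.64-fold lower, limma adjusted p = 1.75e-04, n = 3 against 4), and with BMS753 the change was -1.65 ± 0.34 (limma adjusted p = 0.00502). At single times, where the spread of the EtOH arrays stands in for that of each single array and a call also needs a 2-fold change, Fgf4 was called with ATRA at 24 h (-1.30), 48 h (-2.83) and 72 h (-2.51), and with BMS753 at 48 h (-2.29) and 72 h (-2.73). Beside these calls stood 2.1%, 6.42% and 9.58% of all genes, called in either direction, with ATRA. With BMS753 the shares were 3.13% at 48 h and 5.83% at 72 h. The BMS753 call of the late mean was lost without the 48 h arrays (-1.33, limma adjusted p = 0.0604) and without the 72 h arrays (-1.11, limma adjusted p = 0.0759). With BMS641 the 5 arrays lay between 9.33 and 9.73 and with BMS961 between 9.33 and 9.76, and the late changes were 0.01 ± 0.34 and 0.03 ± 0.34, neither called.

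Fgf15, the mouse counterpart of human FGF19, fell most with ATRA. Its EtOH arrays read 10.45, 10.29, 10.28 and 10.35, and its ATRA arrays 10.11, 8.89, 8.67, 6.87 and 6.89 from 2 to 72 h. All 5 ATRA arrays lay below all EtOH arrays. The late change was -2.86 ± 0.38 (7.28-fold lower, limma adjusted p = 6.38e-05), and Fgf15 was the one of the 10 genes past the single-time threshold at 6 h (-1.45, beside 0.717% of all genes). The BMS753 arrays read 10.21, 9.51, 10.60, 9.85 and 8.14, so that the 24 h array was above all EtOH arrays and the other 4 below them. The late BMS753 change was -0.81 ± 0.38 and was not called (limma adjusted p = 0.193), though without the 24 h arrays it was called (-1.34, limma adjusted p = 0.00299), and the 72 h array stood -2.20 from the EtOH mean. In a comparison added after the values were seen, the 6 h arrays of all 4 agents (8.89 to 10.09) lay below all 2 h arrays (10.11 to 10.58) for Fgf15, 1 of 10 genes without overlap beside 4.83% of all genes, but with limma the difference of -0.70 ± 0.35 was not called (unadjusted p = 0.0678). In that comparison 0 of the 10 genes was called and 0 had an unadjusted p under 0.05, beside 0% of all genes called.

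Fgf5 was not called over the late ATRA arrays as a group, and its arrays went both ways. The EtOH arrays read 8.28, 8.17, 8.26 and 8.38 and the ATRA arrays 7.64, 7.29, 7.38, 7.32 and 10.04 from 2 to 72 h. The first 4 ATRA arrays were below all EtOH arrays and the 72 h array above them. The late change was -0.03 ± 0.46 (limma adjusted p = 0.972), and without the 72 h arrays it was -0.92 (limma adjusted p = 7.81e-04). BMS753 arrays read 7.88, 7.75, 8.52, 7.90 and 7.09, so that at 72 h the ATRA array was 1.77 above the EtOH mean and the BMS753 array -1.18 from it. Each of these values rests on 1 array, with no spread of its own. The BMS641 arrays lay between 7.86 and 8.57 and the BMS961 arrays between 8.05 and 8.86, with the 48 and 72 h arrays of both above all EtOH arrays, and no late change was called (0.19 ± 0.46 and 0.32 ± 0.46).

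The other 3 ligands moved little. Fgf17, close to Fgf8 in sequence, read 6.56, 6.68, 6.61 and 6.55 in EtOH and 6.80, 6.87 and 6.76 in the late ATRA arrays, which all lay above the EtOH arrays. That change of 0.21 ± 0.06 (1.16-fold) was called (limma adjusted p = 0.0113), but not after quantile normalization (0.13, limma adjusted p = 0.0839) or without the 48 h arrays (0.18, limma adjusted p = 0.0723). Fgf8 read 8.10, 8.11, 8.10 and 8.08 in EtOH and 7.88, 7.68, 7.88, 7.80 and 7.70 in the ATRA arrays from 2 to 72 h. All 5 ATRA arrays lay below EtOH, yet the late change of -0.30 ± 0.12 was not called (limma adjusted p = 0.0639). It was called after quantile normalization (-0.34, limma adjusted p = 0.0455) and without the 48 h arrays (-0.31, limma adjusted p = 0.0221), the time at which the BMS753 array stood high (8.63, against 7.86 to 7.99 in the other BMS753 arrays). Fgf3 ranged from 5.95 to 6.49 over all 24 arrays and was called in no comparison against EtOH, with changes of 0.13 ± 0.08 in late ATRA and 0.06 ± 0.08 in late BMS753 arrays.

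Fgf3, Fgf4 and Fgf15 are neighbours on chromosome 7, in the order Fadd, Ano1, Fgf3, Fgf4, Fgf15, LTO1 and Ccnd1 among the named protein-coding genes. Their late ATRA changes were 0.13, -2.21 and -2.86 for the 3 ligands. On the flanks, Fadd, an adaptor of death receptors, changed by 0.27 ± 0.05 (limma adjusted p = 9.63e-04) and LTO1 by 0.21 ± 0.08 (limma adjusted p = 0.0413), both higher. Ccnd1, the cyclin that drives entry into the cell cycle, changed by -0.93 ± 0.17 (limma adjusted p = 5.35e-04), and the channel gene Ano1 was not called (-0.27, limma adjusted p = 0.333). With late ATRA the 2 ligands that fell thus stood between Fgf3, which did not pass the test, and LTO1, which was called higher. Over all genes 17.9% were called higher and 19% lower. With late BMS753, Fadd was higher (0.34 ± 0.05, limma adjusted p = 7.07e-04, beside 6.52% of all genes) and Fgf4 lower (beside 6.94%). Fgf3, Fgf15, Ano1 (0.25, limma adjusted p = 0.501), LTO1 (0.16, limma adjusted p = 0.192) and Ccnd1 (-0.24, limma adjusted p = 0.402) were not called.

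**Figure D2:**
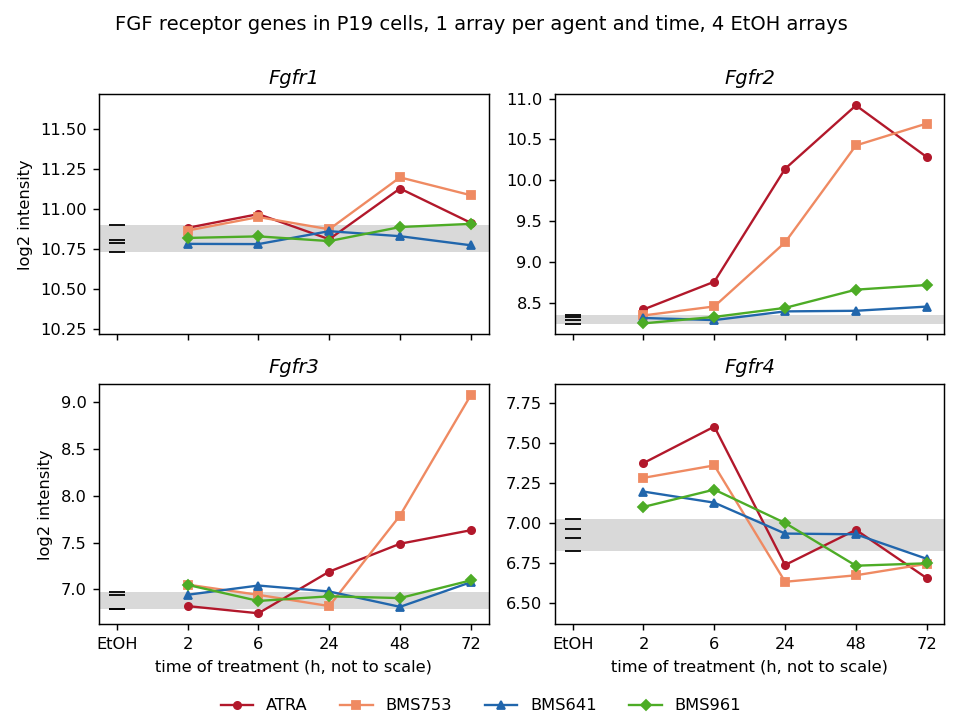
Log2 intensity (vertical axis, own scale in each panel) of the 4 FGF receptor genes by time of treatment in hours (horizontal axis, not to scale), 1 array per point; black bars are the 4 EtOH arrays and the grey band their range. Fgfr2 climbs to 10.92 with ATRA at 48 h and 10.69 with BMS753 at 72 h, and all 8 early Fgfr4 points lie above the EtOH band.

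Among the receptors Fgfr2 rose most. The EtOH arrays read 8.35, 8.24, 8.33 and 8.29, the ATRA arrays 8.42, 8.76, 10.14, 10.92 and 10.28 from 2 to 72 h, and the BMS753 arrays 8.34, 8.45, 9.24, 10.43 and 10.69. All late arrays of both agents lay above all EtOH arrays. The late change was 2.14 ± 0.19 with ATRA (4.42-fold, limma adjusted p = 2.76e-06) and 1.82 ± 0.19 with BMS753 (3.52-fold, limma adjusted p = 4.88e-05). Leaving out any EtOH array or any late time kept it between 1.91 and 2.30 with ATRA and between 1.53 and 2.26 with BMS753. The late BMS641 arrays (8.39 to 8.45) and the late BMS961 arrays (8.44 to 8.72) also lay above all EtOH arrays for Fgfr2, with changes of 0.11 ± 0.19 and 0.30 ± 0.19 that were not called. For either agent this was 1 of 10 genes without overlap, beside 9.99% of all genes with BMS641 and 11.9% with BMS961.

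Fgfr3 read 6.79, 6.97, 6.79 and 6.94 in EtOH, 6.82, 6.75, 7.19, 7.49 and 7.63 with ATRA, and 7.05, 6.94, 6.82, 7.79 and 9.08 with BMS753 from 2 to 72 h. With ATRA all late arrays were above EtOH, and with BMS753 the 24 h array lay within the EtOH range and the 72 h array was the highest of all 24. The late change with BMS753 was 1.02 ± 0.25 (limma adjusted p = 0.0154), and the call was lost without the 48 h arrays (1.08, limma adjusted p = 0.0735) and without the 72 h arrays (0.43, limma adjusted p = 0.148). With ATRA it was 0.56 ± 0.25 and not called (limma adjusted p = 0.0979), although called without the 24 h arrays (0.69, limma adjusted p = 0.00548). The 72 h BMS753 array stood 2.20 above the EtOH mean. The BMS641 and BMS961 arrays stayed between 6.81 and 7.10.

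Fgfr1 read 10.80, 10.90, 10.79 and 10.73 in EtOH and 10.87, 11.20 and 11.08 in the late BMS753 arrays, of which the 48 and 72 h arrays lay above EtOH. The change of 0.25 ± 0.06 (1.19-fold) was called (limma adjusted p = 0.0147), but not without the 48 h arrays (0.17, limma adjusted p = 0.129) or the 72 h arrays (0.23, limma adjusted p = 0.0639). With ATRA the late arrays read 10.81, 11.13 and 10.91, overlapping EtOH, and the change of 0.14 ± 0.06 was not called (limma adjusted p = 0.0757). It was called after quantile normalization (0.18, limma adjusted p = 0.0382), without EtOH replicate 2 (0.18, limma adjusted p = 0.0431) and without the 24 h arrays (0.21, limma adjusted p = 0.00526).

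Fgfr4 was the receptor that was higher early. The EtOH arrays read 7.02, 6.82, 6.90 and 6.96, and the 2 and 6 h arrays 7.37 and 7.60 with ATRA, 7.28 and 7.36 with BMS753, 7.19 and 7.12 with BMS641, and 7.10 and 7.21 with BMS961. All 8 early arrays lay above all EtOH arrays. The early ATRA change of 0.56 ± 0.09 (1.47-fold) was called (limma adjusted p = 0.00713), but not without the 6 h arrays (0.44, limma adjusted p = 0.621). The early changes with BMS753 (0.39 ± 0.09, limma adjusted p = 0.115), BMS641 (0.23 ± 0.09) and BMS961 (0.23 ± 0.09) were not called. Over the early arrays of all agents together, a comparison added after the values were seen, the change was 0.35 ± 0.07 (limma adjusted p = 0.0326, n = 8 against 4), beside 0.326% of all genes called. Fgfr4 and Fgf4 were the 2 of 10 genes whose 8 early arrays did not overlap EtOH, beside 1.88% of all genes. That call was lost after quantile normalization, without any 1 of the EtOH arrays and without either early time, with changes of 0.31 to 0.39 and limma adjusted p of 0.0674 to 0.584. The late arrays read 6.73, 6.95 and 6.65 with ATRA and 6.63, 6.67 and 6.74 with BMS753, the latter all below EtOH (-0.25 ± 0.08, limma adjusted p = 0.0601).

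**Figure D3:**
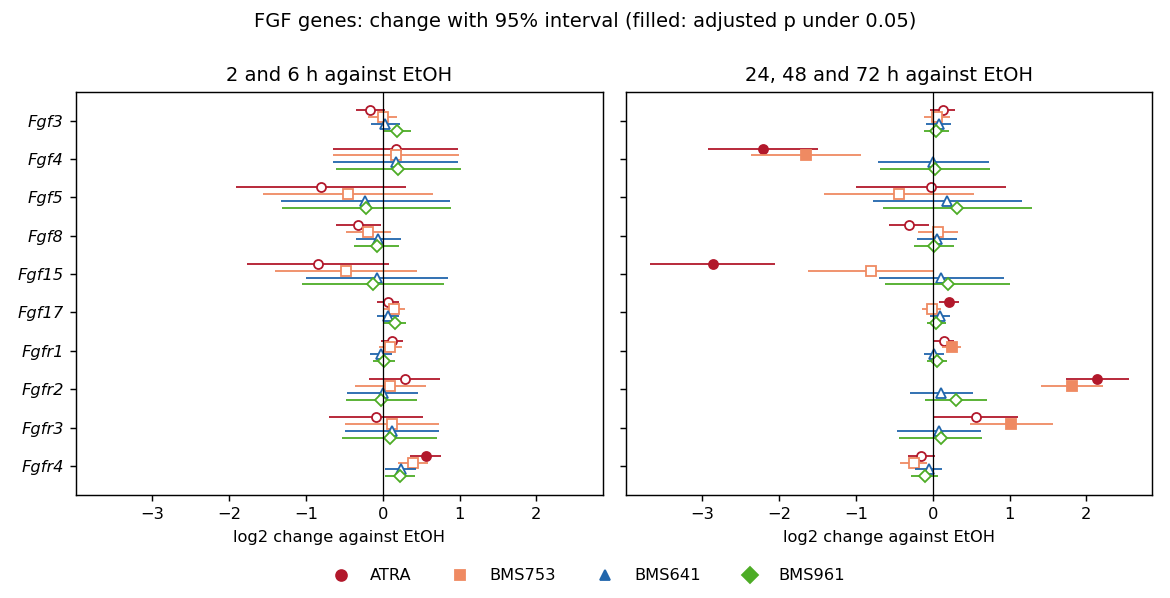
Log2 change against EtOH (horizontal axis) of the 10 FGF genes (vertical axis) for early arrays (left, n = 2 per agent) and late arrays (right, n = 3 per agent) against 4 EtOH arrays; bars are 95% intervals of the limma fit and filled points are called at an adjusted p under 0.05. On the right, Fgf4 and Fgf15 reach -2.21 and -2.86 and Fgfr2 reaches 2.14 with ATRA, while no BMS641 or BMS961 point is filled.

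Early changes other than that of Fgfr4 were not called over the early arrays as a group, though Fgf15 passed the single-time threshold with ATRA at 6 h (-1.45). With early BMS753, 0 of the 10 genes were called by limma and 2 had an unadjusted p under 0.05 (Fgf17 and Fgfr4), beside 0.306% of all genes called and 10.4% at that unadjusted p. In the early ATRA arrays Fgf5 (-0.81 ± 0.52), Fgf8 (-0.32 ± 0.14) and Fgf15 (-0.84 ± 0.43) lay below all EtOH arrays and Fgf4 (0.17 ± 0.38) and Fgfr2 (0.28 ± 0.22) above them. With Fgfr4 this made 6 of 10 genes without overlap, beside 24.2% of all genes, and the count with early BMS753 was also 6, beside 29.5%. The change against EtOH differed between the late and the early arrays for 5 genes with ATRA, beside 31.5% of all genes. Late values were higher for Fgf3 and Fgfr2, beside 14.9% of all genes, and lower for Fgf4, Fgf15 and Fgfr4, beside 16.7%. With BMS753 it differed for 3 genes, beside 10.8% of all genes, with Fgfr2 higher late, beside 3.26%, and Fgf4 and Fgfr4 lower, beside 7.57%. For Fgfr4 the late mean was below the early one, with a difference of -0.71 ± 0.10 with ATRA and -0.64 ± 0.10 with BMS753.

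ATRA, a ligand of all 3 RARs, and BMS753, selective for RARα, were given at the same dose and could be compared directly. Over the late arrays 2 of the 10 genes differed by limma, beside 10.4% of all genes. Fgf15 was lower with ATRA, beside 5.93% of all genes, with a difference of -2.05 ± 0.41 (limma adjusted p = 0.00882), though the arrays overlapped. The call was lost without the 48 h arrays (-1.59, limma adjusted p = 0.107). It was also lost in a fit of these 2 groups alone, which pairs their arrays by time (limma adjusted p = 0.413 for Fgf15). That fit called 0 of all genes, the 10 included. Fgf17 was higher with ATRA, beside 4.44% of all genes, by 0.23 ± 0.06 (limma adjusted p = 0.0357, 3 of 3 arrays above the BMS753 arrays), and its call was lost without any 1 of the late times (limma adjusted p of 0.0863 to 0.123) and after quantile normalization (0.16, limma adjusted p = 0.101). For the others the 95% interval of the difference was -1.33 to 0.20 for Fgf4, -0.63 to 1.45 for Fgf5, -0.65 to -0.09 for Fgf8 and -0.10 to 0.25 for Fgf3. Among the receptors it was -0.24 to 0.04 for Fgfr1, -0.11 to 0.76 for Fgfr2, -1.04 to 0.12 for Fgfr3 and -0.09 to 0.29 for Fgfr4. The Fgf8 interval left out 0 (unadjusted limma p under 0.05), but the difference was not called. Its late ATRA arrays all lay below the late BMS753 arrays, by a narrow margin (7.878 against 7.882). Fgf8 and Fgf17 were the 2 of 10 genes without overlap, beside 16.1% of all genes. Without the 72 h arrays the Fgf5 difference turned from 0.41 to -0.86 and was called (limma adjusted p = 0.0212), and without the 24 h arrays Fgf8 (-0.50, limma adjusted p = 0.0351) and Fgfr3 (-0.87, limma adjusted p = 0.00727) were called, both lower with ATRA. Array by array, the Fgf4 difference (ATRA minus BMS753) was -1.38 at 24 h, -0.54 at 48 h and 0.23 at 72 h. Fgfr2 differed by 0.90 at 24 h, 0.49 at 48 h and -0.41 at 72 h, each from 1 array per agent. Over the early arrays 0 of the 10 genes differed and 0 had an unadjusted p under 0.05 by limma, beside 0% of all genes called.

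In the fit of all arrays, BMS641 and BMS961, selective for RARβ and RARγ, both at 0.1 µM, changed no FGF gene past the test. Late, 0 of 10 genes were called by limma with either agent and 0 had an unadjusted p under 0.05, beside 0% of all genes called with BMS641 and 0.00502% with BMS961. Early, 0 of 10 were called with either, beside 0% of all genes, and 1 gene with BMS641 (Fgfr4) and 2 with BMS961 (Fgf17 and Fgfr4) had an unadjusted p under 0.05, beside 2.35% and 2.92% of all genes. The direct difference between the 2 agents was called for 0 of 10 genes late and early, with 0 at an unadjusted p under 0.05, beside 0% of all genes. Its late 95% interval was -0.75 to 0.79 for Fgf4, -0.78 to 0.96 for Fgf15 and -0.25 to 0.62 for Fgfr2, so differences inside those bounds were not resolved. The 1 µM agents were not tested against the 0.1 µM agents, because agent and dose cannot be told apart. The 0.1 µM agents also moved retinoid response genes less. Of 4 measured (Rarb, Cyp26a1 and Dhrs3 among them), late limma calls were 0 with BMS641, 1 with BMS961, 3 with BMS753 and 4 with ATRA. All these calls were higher, beside 0%, 0.00502%, 6.52% and 17.9% of all genes. Their median late changes were 0.40, 1.11, 2.17 and 3.04 in that order.

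Of the remaining secreted FGFs, 12 genes, 3 were higher and 1 lower in late ATRA arrays, and 1 was higher and 1 lower with BMS753. Called in either direction, 4 of 12 and 2 of 12 are near the shares of all genes (36.9% and 13.5%). Fgf10, a ligand of the Fgfr2 IIIb isoform, rose with both (0.63 ± 0.16 and 0.85 ± 0.16, limma adjusted p = 0.00641 and 0.00308), Fgf9 and Fgf18 with ATRA (0.48 and 0.43), and the hormone-like Fgf23 was lower with both (-0.23 and -0.26). The calls of Fgf9, Fgf18 and Fgf23 were each lost without 1 or more arrays or times. Among the 4 intracellular FGF homologous factors, which do not act through FGF receptors, Fgf11 was lower with ATRA (-1.13 ± 0.37, limma adjusted p = 0.0253), a call lost without EtOH replicate 1 (limma adjusted p = 0.0519) and without the 48 h arrays (-0.61, limma adjusted p = 0.218).

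Partners of the ligands and receptors outside the cell were called more often as higher than as lower. Of 22 measured, 11 were higher and 1 lower with late ATRA and 9 higher and 1 lower with late BMS753. Over all genes 17.9% were higher and 19% lower with ATRA, and 6.52% and 6.94% with BMS753. The medians were 0.50 and 0.42 against 0.03 and -0.01 over all genes. Flrt3, a membrane protein that binds FGF receptors and is known to enhance their signal, rose by 3.24 ± 0.28 with ATRA and 2.12 ± 0.28 with BMS753, and the difference of 1.11 between them was called (limma adjusted p = 0.0317) but not without the 48 h arrays (limma adjusted p = 0.0992). Hs6st2, a sulfotransferase that modifies heparan sulfate, rose by 2.00 ± 0.11 and 0.68 ± 0.11, and its difference of 1.32 ± 0.11 was called (limma adjusted p = 5.23e-05). In a fit of the 2 groups alone, which called 0 of all genes, neither difference was called (limma adjusted p = 0.413). Flrt2, of the same family as Flrt3, was higher with ATRA (1.81 ± 0.43, limma adjusted p = 0.00383), though its arrays overlapped EtOH, and the proteoglycan core protein Sdc4 was lower with both agents (-1.02 ± 0.15 and -0.96 ± 0.15). Without the 48 h arrays the higher calls fell to 8 with ATRA and 4 with BMS753, and without the 24 h arrays they were 16 and 14. Over all genes, late BMS753 calls in either direction went from 2683 to 1051 without the 48 h arrays and to 5364 without the 24 h arrays.

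Of 13 measured adaptors and kinases between the receptor and MAPK, 5 were higher and 2 lower with late ATRA, beside 17.9% and 19% of all genes, and 2 were higher with late BMS753, beside 6.52%. The docking protein gene Gab1 rose by 1.07 ± 0.16 with ATRA, and the Ras exchange factor genes Sos2 and Sos1 by 0.70 ± 0.08 and 0.46 ± 0.10. The MAPK kinase gene Map2k1 (-0.69 ± 0.17) and the adaptor gene Shc1 (-0.59 ± 0.13) were lower with ATRA. With BMS753 the higher genes were Sos2 (0.48 ± 0.08) and Sos1 (0.36 ± 0.10). Without the 24 h arrays 7 were higher and 2 lower, while the calls over all genes rose from 2683 to 5364. With ATRA the higher calls fell to 3 without the 72 h arrays and reached 8 without the 24 h arrays.

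**Figure D4:**
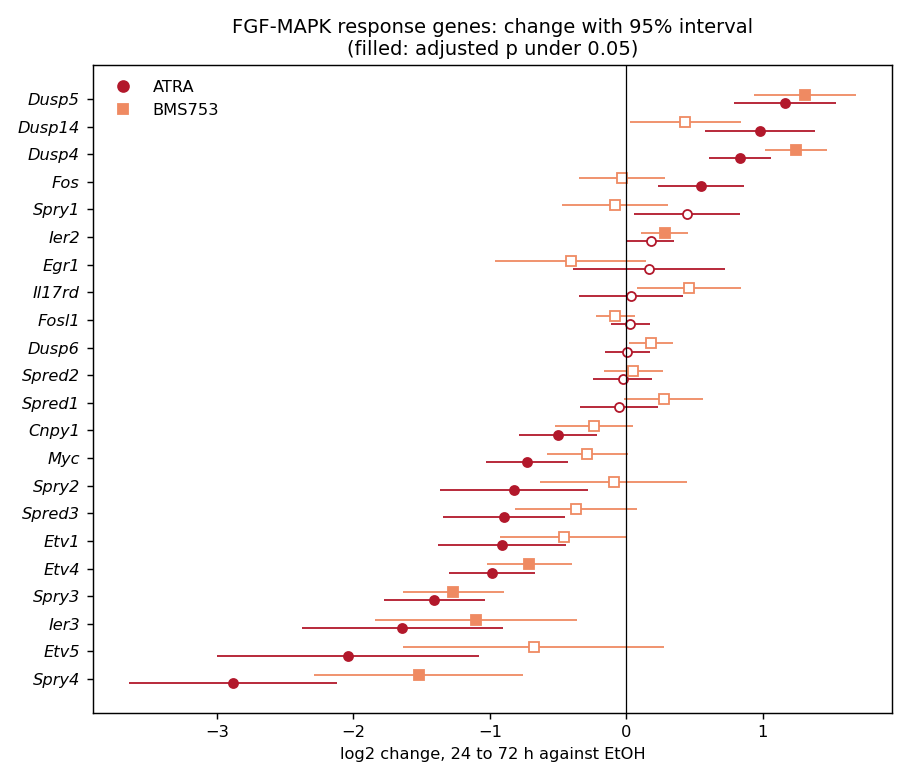
Late log2 change against EtOH (horizontal axis) of the 22 FGF-MAPK response and feedback genes (vertical axis, ordered by the ATRA change) for ATRA and BMS753, n = 3 arrays each against 4 EtOH arrays; bars are 95% intervals of the limma fit and filled points are called at an adjusted p under 0.05. Spry4 is the lowest at -2.88 with ATRA, and Dusp5 and Dusp4 are called higher with both agents.

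The genes known to respond to FGF-MAPK signalling were called in both directions. Of 22, 4 were higher and 10 lower with late ATRA, and 3 higher and 4 lower with late BMS753, with medians of -0.04 and -0.09. Over all genes 17.9% were higher and 19% lower with ATRA, near the response genes' share of higher calls, and 6.52% and 6.94% with BMS753. Spry4, a Sprouty feedback inhibitor of receptor tyrosine kinases, read 9.74, 9.75, 9.68 and 9.70 in EtOH, 9.97, 10.11, 7.92, 5.99 and 6.59 with ATRA and 9.87, 9.67, 9.49, 8.23 and 6.85 with BMS753 from 2 to 72 h. All late arrays of both agents were below EtOH, and at 24 h the ATRA array was well below the BMS753 array. The changes were -2.88 ± 0.36 (limma adjusted p = 3.59e-05) and -1.52 ± 0.36 (limma adjusted p = 0.0114). The BMS753 call was lost without the 72 h arrays (-0.85, limma adjusted p = 0.11). The call of the difference between the agents, -1.36 ± 0.38 (limma adjusted p = 0.0362), was lost without the 48 h arrays (-0.92, limma adjusted p = 0.242). It was also lost without EtOH replicate 4 (limma adjusted p = 0.0501) and with no time term (limma adjusted p = 0.0705). A fit of the 2 groups alone did not call it either (limma adjusted p = 0.413), but called 0 of all genes.

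Etv4 and Etv5, ETS transcription factors induced by FGF signalling, were lower with ATRA (-0.99 ± 0.15 and -2.04 ± 0.45), as were Spry3 (-1.41 ± 0.17), Ier3 (-1.64 ± 0.35), Etv1 (-0.91 ± 0.22) and Spry2 (-0.82 ± 0.25). Etv5 read 11.22 at 24 h, above all EtOH arrays (11.04 to 11.07), and 8.01 and 7.83 at 48 and 72 h with ATRA, a later fall than that of Fgf4, which read 8.18 at 24 h. With BMS753 the higher genes were Dusp4, Dusp5 and Ier2 (0.28), and the lower ones Spry4, Spry3 (-1.27 ± 0.17), Ier3 (-1.10 ± 0.35) and Etv4 (-0.71 ± 0.15), and the call of Ier3 was lost without any 1 of the EtOH arrays, without the 48 h arrays and without the 72 h arrays (limma adjusted p of 0.0757 to 0.311). The MAPK phosphatase genes went the other way or did not pass the test. Dusp5 rose by 1.16 ± 0.17 with ATRA and 1.31 ± 0.17 with BMS753, and Dusp4 by 0.83 ± 0.11 and 1.24 ± 0.11. Dusp14 rose with ATRA (0.98 ± 0.19), while Dusp6, often used as a readout of ERK activity, changed by 0.01 ± 0.08 with ATRA (limma adjusted p = 0.953) and 0.18 ± 0.08 with BMS753 (limma adjusted p = 0.14). Without the 24 h arrays the lower calls with BMS753 were 7, while the BMS753 calls over all genes rose from 2683 to 5364. In the direct comparison of ATRA with BMS753, 2 of 22 were lower and 1 higher with all arrays, beside 5.93% and 4.44% of all genes. That count was 0 without the 48 h arrays, where the calls over all genes fell from 2067 to 317. In the late and early comparisons of BMS641 and BMS961 with EtOH, limma called 0 genes of these 5 lists. At an unadjusted p under 0.05 there were 0 with BMS641, beside 3.13% of all genes late and 2.35% early. With BMS961 there were 3 response genes and 1 extracellular partner late, beside 3.86% of all genes. Early there were 1 partner and 1 other ligand with BMS961, beside 2.92%.

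For each FGF gene called in a late comparison, the 2 named genes with the most similar pattern were found by Pearson's r over the 24 arrays, which share their EtOH controls and times, so r is a description with no test. For Fgf4 they were Phc1, a Polycomb component (r = 0.990), and the transporter gene Slc41a2 (r = 0.988). Fgf15 was followed by Ndrg1 and Timp4 (r = 0.971 each), and Fgfr2 by Hoxb2, a homeobox gene of the hindbrain (r = 0.993), and Cracd (r = 0.988). Fgfr3 was matched by Grem1, a secreted BMP antagonist (r = 0.975), and the transcription factor gene Tfap2b (r = 0.970). Fgfr1 was matched less closely, by Col18a1 (r = 0.886) and Aagab (r = 0.876), and Fgf17 least, by Serpina5 (r = 0.753) and Msc (r = 0.727).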

How the data were processed

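The authors deposited 1 log2 intensity per probe set and array, made with Affymetrix Expression Console 1.1, per the submitters' processing notes. Background correction, summarization and normalization are not given in the sources used here, and the log2 scale was judged from the range (2.86 to 14.3). Array medians lay between 6.50 and 6.68, and precision is limited by how many arrays there are. Of 35556 probe sets, 21789 had 1 gene symbol in the platform annotation, 1621 had several and 12146 had none. For the 999 genes with several probe sets, the one with the highest mean was kept, which left 19938 genes and no filter on low values.

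Changes came from limma 3.58.1 under R 4.3.3 (lmFit, then eBayes with a trended prior) over all 24 arrays, with 1 mean for EtOH, 1 for every agent early and 1 late, and with time terms within a phase that the agents shared (12 residual degrees of freedom, 3.10 prior). Arrays of different times thus stand in for replicates of an agent. There were 18 comparisons, of which the early arrays of all agents against EtOH and 6 h against 2 h were added after the data were seen. The compounds were compared in 2 pairs of equal dose. Single times had a mean each, with the spread from the EtOH arrays (3 residual and 10.3 prior degrees of freedom). Scripts were tested on simulated data.

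All 10 FGF genes were tested in every comparison, and those not named in a comparison were not called in it. Of each list of other pathway genes, the called genes with the 3 largest rises and falls in late ATRA arrays were to be named, and for response genes those of each late comparison. Dusp6, Etv1, Etv4, Spry2 and Zfp42, named outside that rule, were chosen after their values were seen, and the genes flanking Fgf3, Fgf4 and Fgf15 for their position. The genes and the 12 lists were chosen with earlier results of these data known. Promoters came from RefSeq (GRCm38.p6). Alternatives changed the filter, normalization, probe sets, moderation, fold threshold, time term, source of the spread, arrays in the fit, and left out each EtOH array or time.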

Additional observations from a re-analysis of the deposited data

Results flagged for a closer look

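With ATRA, the change against EtOH differed between late and early arrays by limma for Fgf3 (0.29, late minus early), Fgf4 (-2.38), Fgf15 (-2.02), Fgfr2 (1.86) and Fgfr4 (-0.71). With BMS753 it differed for Fgf4 (-1.82), Fgfr2 (1.72) and Fgfr4 (-0.64). The Fgf15 difference with ATRA was lost without the 2 h arrays (-1.41, limma adjusted p = 0.167), and that of Fgf3 without the 2, 6 or 48 h arrays and after quantile normalization (limma adjusted p of 0.0548 to 0.153). The Fgf4 difference with BMS753 was lost without the 2, 6, 48 or 72 h arrays (limma adjusted p of 0.0718 to 0.151), and that of Fgfr4 without the 6 h arrays (-0.60, limma adjusted p = 0.0536).

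Among the EtOH arrays, the lowest stood apart from the other 3 for Fgf3 (6.03, a gap of 0.844 of the range) and for Fgf8 (8.08, a gap of 0.882 of the range). These were EtOH replicate 1 and EtOH replicate 4, and chance flags about 1 in 20 such groups. The EtOH range of Fgf8, 8.08 to 8.11, was narrow in itself.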

How the results depend on the processing

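The late calls of Fgf4, Fgf15 and Fgfr2 with ATRA and of Fgfr2 with BMS753 kept their direction and call under every alternative run. Taking the spread from the EtOH arrays alone gave 7 called genes in place of 4 for late ATRA, 5 in place of 1 for early ATRA, 7 in place of 4 for late BMS753, 3 in place of 0 for early BMS753, and 3 in place of 0 for late BMS961. It gave 7 in place of 2 for ATRA against BMS753 late, 1 in place of 0 for that pair early and 7 in place of 3 for BMS753 late against early. The same setting gave 1 and 3 in place of 0 for BMS641 and BMS961 late against early, 5 in place of 1 for all early arrays, and 1 in place of 0 for 6 h against 2 h. Over all genes the calls rose from 171 to 1402 for early ATRA, from 61 to 908 for early BMS753 and from 2683 to 6247 for late BMS753. They also rose from 2067 to 7024 for ATRA against BMS753 late and from 1 to 456 for late BMS961. A fit of the groups compared alone gave 7, 5, 7, 3 and 3 for late ATRA, early ATRA, late BMS753, early BMS753 and late BMS961. There the time terms take up all the spread of the agent's arrays, so that only the EtOH arrays give a spread. Those 5 counts thus repeat the former setting and are no second check. The same kind of fit gave 0 for ATRA against BMS753 late (0 of all genes), 4 for all early arrays and 1 for 6 h against 2 h. It could not be fitted for late against early within an agent, which leaves no residual degrees of freedom. A 2-fold threshold gave 0 for early ATRA, 1 for ATRA against BMS753 late, 3 for ATRA late against early and 0 for all early arrays. Quantile normalization gave 1 for ATRA against BMS753 late and 0 for all early arrays, and no time term gave 1 for the former.

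Leaving out 1 EtOH array or time gave 4 to 6 called genes for late ATRA, 0 to 1 for early ATRA, 1 to 5 for late BMS753, 0 to 3 for ATRA against BMS753 late, 3 to 6 for ATRA late against early, 1 to 5 for BMS753 late against early and 0 for all early arrays. The one reversed result was the Fgf5 difference between ATRA and BMS753 late, 0.41 with all arrays and from -0.86 (without the 72 h arrays) to 1.18 (without the 24 h arrays) when 1 was left out. Over all genes, late BMS753 calls numbered 2683, and 412 with a 2-fold threshold, and late ATRA calls 7362 and 939. Leaving out 1 late time gave 1051 to 5364 of all genes for late BMS753. For ATRA against BMS753 late it gave 317 to 4735 of all genes, in place of 2067. Early ATRA calls over all genes fell from 171 to 18 without the 6 h arrays. The causes were not tested. No pairing by replicate was possible, because only the EtOH arrays carry replicate numbers, which leaves none to pair between groups. Arrays of different agents share times, and the time terms of the fit match them by time. For ATRA against BMS753 late, the fit of those groups alone is a comparison paired by time, and it called 0 of all genes.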
